A study of Homo sapiens with 12 samples.

Results

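The 48 genes described here encode proteins of the lysosome and of autophagy. They comprise 11 cathepsins, 15 other lysosomal enzymes with their cofactors, 6 proteins of the lysosomal membrane or of cholesterol export, 6 subunits of the proton pump, the 3 transcription factors TFEB, TFE3 and MITF, and 7 autophagy proteins. They were listed by name, with no threshold on their values, and all 48 were found among the 17013 genes measured by mRNA-seq. HCC1806, a human triple-negative breast cancer (TNBC) line, received either siNT, a non-targeting siRNA, or siMLK4, a pool of 4 siRNAs against MLK4, a mixed-lineage kinase encoded by MAP3K21. Cells of each kind then received 1 μM doxorubicin, a topoisomerase II poison used in chemotherapy, or vehicle (DMSO in the labels), and the drug was left on for 24 h. This gave 4 groups of 3 libraries, all from 1 cell line and all from transfected cells, so that an effect of siMLK4 is the effect of that pool in this line. Replicates 2 and 3 of siMLK4 with doxorubicin carry the same library number in the labels, but their reads differed more than those of the other pairs in that group, as the chi-square over its degrees of freedom was 25.2 against 7.01 and 10.6. The sources differ on the cells without drug, which have DMSO in the labels, DMSO for 24 h in a supplementary legend, a time 0 in their short names, and no treatment in the methods. The comparisons ask how these genes responded to doxorubicin in siNT and in siMLK4 cells. They also ask how siMLK4 cells, called MLK4-depleted below, differed from siNT cells in either condition.

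Lysosomes are acidic organelles in which proteins, lipids and sugar chains are broken down. A proton pump of many subunits, the V-ATPase, keeps them acidic, cathepsins cut proteins, and a set of glycosidases, lipases and sulfatases takes apart glycans and glycolipids. Autophagy delivers cytoplasmic cargo to the lysosome in vesicles whose membranes carry lipid-bound proteins of the LC3 and GABARAP families. TFEB, TFE3 and MITF are related transcription factors that bind a short promoter element with the core CACGTG and switch on many lysosomal and autophagy genes. Cathepsins can also be secreted by tumor cells, where they cut proteins of the extracellular matrix.

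The libraries held 16759025 to 19302248 reads on the genes measured. Expression is given as normalized reads, that is, reads divided by the size factor of the library. Fold changes and their standard errors (SE) come from the variance-stabilized log2 values, a scale that understates the change of a gene with few reads, and a gene was called when its adjusted p was under 0.01 and its log2 fold change exceeded 0.75 in size. Of the 48 genes, 47 had at least 10 reads in every library. CLN3, a lysosomal membrane protein, did not, and it had 6.73 ± 2.43 (SD, n = 3) normalized reads in siNT cells with vehicle. It shares 25.2% of its 50-base stretches with other genes, so its values are uncertain. The 3 libraries of a group came from triplicate transfections, per the study's methods, and no source used here says whether these were made on separate days. The p-values measure the spread between these libraries alone.

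MAP3K21 was read first, as a check of the siRNA labels. It had 632 ± 68.5 and 795 ± 53.3 normalized reads in siNT cells with vehicle and with doxorubicin, against 95.5 ± 7.31 and 115 ± 22.1 in siMLK4 cells (SD, n = 3 each). The siMLK4 libraries were all below the siNT libraries. The cells were also checked against markers of the line. All 10 epithelial markers were measured, KRT8 being the most abundant, and their summed level in normalized reads lay between 112318 and 119403 in siNT cells on vehicle. It was 75512 to 87349 in siNT cells with doxorubicin, 102908 to 106663 in siMLK4 cells with vehicle and 47514 to 61845 in siMLK4 cells with doxorubicin, so that this sum was lower with the drug in every library. Its members differed, however. KRT5, KRT14, KRT6A, KRT18, TP63 and EGFR fell in both siRNA groups, and EPCAM, CDH1, KRT17 and KRT8 were not called. KRT8 had 22026 ± 3348 normalized reads without and 29735 ± 3324 with drug in siNT cells, where the drug libraries were all higher, and 23338 ± 3271 and 19053 ± 3971 in siMLK4 cells (SD, n = 3 each). Between siRNA groups, KRT14 was lower in siMLK4 cells, by a log2 difference of −1.05 (SE 0.16, adjusted p = 3.3e-04) with vehicle and −1.26 (SE 0.16, adjusted p = 8.9e-05) with doxorubicin. KRT6A was lower too, with −1.19 (SE 0.11, adjusted p = 4.3e-06) and −1.03 (SE 0.11, adjusted p = 1.9e-05), and so was KRT17 with doxorubicin, with −0.82 (SE 0.16, adjusted p = 0.0019). PGR, the progesterone receptor, was at 0 in all vehicle libraries and between 7.3 and 18.5 normalized reads with doxorubicin. Leukocyte markers, which matter here because leukocytes and osteoclasts are rich in cathepsins, were low. CD68 and LYZ were not among the genes measured, and PTPRC, CD14 and CSF1R together reached 38.8 to 79.2 normalized reads over the 12 libraries. Their members differed in direction. PTPRC had 5.48 ± 2.83 and 20.3 ± 0.942 normalized reads in siNT cells with vehicle and doxorubicin, and 1.75 ± 1.64 and 17.9 ± 5.19 in siMLK4 cells, where it was called higher, while CSF1R had 28.1 ± 2.24 and 23.1 ± 6.93 in siNT cells and 40.0 ± 1.01 and 13.6 ± 4.55 in siMLK4 cells and was not called (SD, n = 3 each). The fibroblast markers COL1A1, the most abundant, and PDGFRB summed to 257 to 336 normalized reads in the 6 siNT libraries and 348 to 601 in the 6 siMLK4 libraries, which did not overlap, and COL1A2 and DCN were not among the genes measured. COL1A1 was called higher in siMLK4 than in siNT cells with vehicle, by 0.78 (SE 0.12, adjusted p = 4.1e-04) on the log2 scale, and had 0.51 (SE 0.12, adjusted p = 0.0075) with doxorubicin. In addition, the 1 endothelial marker measured, VWF, had 13.5 to 67.1. The osteoclast markers ACP5 and OSCAR summed to 120.4 to 133.9 in siNT cells with vehicle and 23.3 to 34.1 with doxorubicin, and to 227.4 to 309.2 and 41.7 to 63.4 in siMLK4 cells, and on vehicle nearly all of it was ACP5, itself a lysosomal phosphatase. OSCAR went the other way, with 1.55 ± 1.80 normalized reads without and 16.3 ± 3.73 with drug in siNT cells, and 3.47 ± 1.75 without and 30.5 ± 8.87 with drug in siMLK4 cells (SD, n = 3 each), and was called higher in both, so that the sum follows ACP5. Between 200 and 354 genes had no read in the vehicle libraries and between 17 and 42 in the doxorubicin libraries. The part of these differences in the results below was not tested.

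The element bound by the TFEB family was sought in the promoters. The genes were listed by name, but many lysosomal and autophagy genes are known targets of these factors. A larger share among them is therefore no independent result. RefSeq windows of 300 bases, from 250 before to 50 after the gene start, were at hand for 35 of the 48 genes. The 8 letters TCACGTGA, which read the same on both strands and contain CACGTG, occur in the windows of 6 of these 35 genes (17.1%), namely ATP6V0D1, CLN3, CTSA, GAA, LAMP1 and MCOLN1, against 321 of the 27305 genes with a window overall (1.18%). The shorter CACGTG, also the same on both strands, occurs in 10 of the 35 (28.6%), adding ARSB, CTSD, CTSF and NEU1, against 8.77% of all genes with a window. Among 118 related lysosome and autophagy genes with a window, the shares were 10.2% and 23.7%. Shown are the windows of MCOLN1, ATP6V0D1 and NEU1, which rose upon doxorubicin treatment, and of LAMP1, which was lower in MLK4-depleted cells. They are written 5′ to 3′ on the strand of the gene, from GRCh38.p14, with TCACGTGA in capitals and any other CACGTG in capitals as 6 letters.
MCOLN1 (chr19:7522374-7522673, + strand): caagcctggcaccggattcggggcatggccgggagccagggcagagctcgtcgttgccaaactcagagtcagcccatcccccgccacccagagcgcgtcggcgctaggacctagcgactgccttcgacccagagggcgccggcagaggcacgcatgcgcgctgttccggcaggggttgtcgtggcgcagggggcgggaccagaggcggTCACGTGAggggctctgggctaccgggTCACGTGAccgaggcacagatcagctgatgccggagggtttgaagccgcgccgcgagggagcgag
ATP6V0D1 (chr16:67481108-67481407, − strand): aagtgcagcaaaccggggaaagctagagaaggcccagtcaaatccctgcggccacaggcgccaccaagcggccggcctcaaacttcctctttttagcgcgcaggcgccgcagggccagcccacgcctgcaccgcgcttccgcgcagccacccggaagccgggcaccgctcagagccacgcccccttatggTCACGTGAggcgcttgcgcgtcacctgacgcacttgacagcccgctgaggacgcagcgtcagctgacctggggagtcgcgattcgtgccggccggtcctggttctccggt
NEU1 (chr6:31862772-31863071, − strand): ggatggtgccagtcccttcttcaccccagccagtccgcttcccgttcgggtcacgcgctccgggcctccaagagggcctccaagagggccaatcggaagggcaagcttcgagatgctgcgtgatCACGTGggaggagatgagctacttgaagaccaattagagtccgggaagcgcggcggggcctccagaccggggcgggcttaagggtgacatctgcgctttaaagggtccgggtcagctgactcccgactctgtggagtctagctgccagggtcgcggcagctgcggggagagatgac
LAMP1 (chr13:113296989-113297288, + strand): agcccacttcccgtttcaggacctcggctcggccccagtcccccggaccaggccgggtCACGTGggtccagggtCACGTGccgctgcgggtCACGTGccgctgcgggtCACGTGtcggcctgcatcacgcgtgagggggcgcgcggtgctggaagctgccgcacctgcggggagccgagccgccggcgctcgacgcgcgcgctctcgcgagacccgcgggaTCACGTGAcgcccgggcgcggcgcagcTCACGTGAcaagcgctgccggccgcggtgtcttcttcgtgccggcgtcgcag
The MCOLN1 window holds the 8-letter word at −42 and −15, counted from its first letter to the gene start, and the ATP6V0D1 window holds it at −60. The LAMP1 window holds 6 copies of CACGTG, of which the last pair lies within 8-letter words that start at −29 and −2. NEU1 has a single CACGTG at −126. These are matches of letters, and binding was not measured.

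Levels of the 48 genes spanned a wide range. Per kilobase of annotated exon sequence, averaged over the 4 group means, PSAP was highest with 5829.8 normalized reads. PSAP encodes prosaposin, the precursor of the saposins that help lysosomal enzymes reach their lipid substrates. SQSTM1, the autophagy receptor p62, followed with 1421 normalized reads per kb, LAMP1, a major protein of the lysosomal membrane, with 1044, CTSB, a cysteine protease, with 947, and FUCA1, which removes fucose from glycans, with 777. At the other end were CLN3 with 0.718, CTSK with 2.68, MITF with 20.6, TFEB with 24.9 and CTSS with 24.9 normalized reads per kb. CTSK and CTSS are the cathepsins best known from osteoclasts and antigen-presenting cells. The order depends on the annotated exon length, which counts the exons of every listed transcript.

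The 48 genes together took 0.448, 0.402 and 0.409% of the reads in siNT cells on vehicle, against 0.686, 0.66 and 0.623% on doxorubicin. In siMLK4 cells the shares were 0.447, 0.462 and 0.485% with vehicle and 0.693, 0.685 and 0.646% with doxorubicin. Every doxorubicin library was above every vehicle library, and no siRNA difference of that size was seen within a treatment. The rise was not particular to these genes. The share of 148 related lysosome and autophagy genes went from 0.762 ± 0.0161% to 1.03 ± 0.0272% in siNT cells. In siMLK4 cells it went from 0.85 ± 0.00121% to 1.13 ± 0.0558% (SD, n = 3 each). With libraries scaled to their totals, the median log2 fold change of all genes with doxorubicin was 0.18 and 0.16. In a bulk library, fewer cells of a type and less RNA per cell cannot be told apart, and a share of reads does not count RNA molecules per cell. The cathepsins, led by CTSB, took 0.106 ± 0.00652% of reads in siNT cells with vehicle and 0.175 ± 0.00808% with doxorubicin, the other enzymes, led by PSAP, 0.122 ± 0.00627% and 0.209 ± 0.011%, and the proton pump, led by ATP6V1A, 0.0358 ± 0.00131% and 0.0545 ± 0.00229% (SD, n = 3 each). The TFEB family, by contrast, took 0.00714 ± 0.000364% and 0.00675 ± 6.98e-05%, its most abundant member being TFE3. In siMLK4 cells this family took 0.00717 ± 0.000207% and 0.00759 ± 0.000171%, and every doxorubicin library was above every vehicle library. With vehicle the other enzymes took 0.170 ± 0.00777% in siMLK4 cells, more than in siNT cells. The membrane and cholesterol export genes took less there, 0.0466 ± 0.00363% against 0.0615 ± 0.00439% in siNT cells (SD, n = 3 each).

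**Figure D1:**
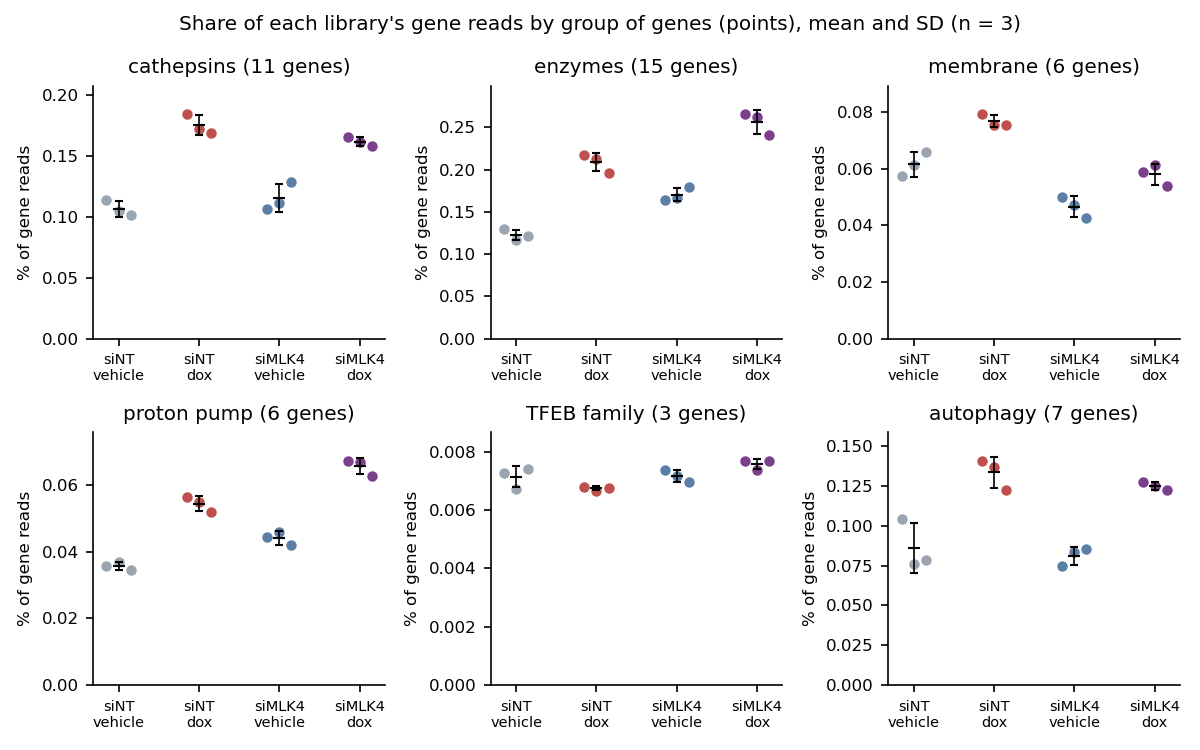
Percent of each library's gene reads that fell on each of the 6 groups of genes, by siRNA and treatment, with points for libraries and bars for mean and SD (n = 3). In 5 groups the doxorubicin libraries lie above the vehicle libraries of the same siRNA, and in the TFEB family, where all libraries lie between 0.00667 and 0.0077%, those of siNT cells overlap.

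Doxorubicin raised 13 of the 48 genes in siNT cells (27.1%), where 12.1% of all genes were called higher, and lowered 1 (2.08%), where 10.6% of all genes were called lower. In siMLK4 cells it raised 12 (25%, against 12.6% of all genes). None was called lower there, against 10.6% of all genes, and 32 of the 48 genes had an unadjusted p under 0.05 in either direction, against 62.6% of all genes. With limma-voom on the recovered reads the background was higher. It called 14 members higher and 2 lower in siNT cells, where 18% and 13.8% of all genes were called, and 12 higher and 2 lower, CTSH and MANBA, in siMLK4 cells, where 18.3% and 14.7% were. The members had a median log2 fold change of 0.20 in siNT cells and 0.28 in siMLK4 cells, beside medians of 0.00 and 0.02 over all genes. Called higher in both siRNA groups were ARSA, ATP6V0D1, CTSB, CTSF, FUCA1, GABARAPL1, MCOLN1, MITF, NEU1 and SMPD1. These 10 genes made up 76.9% of the genes raised in siNT cells and 83.3% of those raised in siMLK4 cells. For all genes the shares were 72.9% and 69.9%, and 8.82% of all genes were called higher in both. The libraries did not overlap for 24 members that were higher and 7 that were lower in siNT cells (50% and 14.6%, against 32% and 30.4% of all genes), and for 25 and 8 in siMLK4 cells (52.1% and 16.7%, against 33.4% and 30.5%). At an adjusted p under 0.05 with no fold threshold, 22 members were higher and 6 lower in siNT cells (29.6% and 27.7% of all genes), and 24 and 7 in siMLK4 cells (30.2% and 27.7%). The size factors bear on these counts. When libraries were scaled to their totals instead, the median of all genes moved to 0.18 in siNT cells and 0.16 in siMLK4 cells, and 19 and 15 of the 48 genes were called higher, against 16.7% and 17% of all genes, and none lower, against 6.43% and 7.49%.

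**Figure D2:**
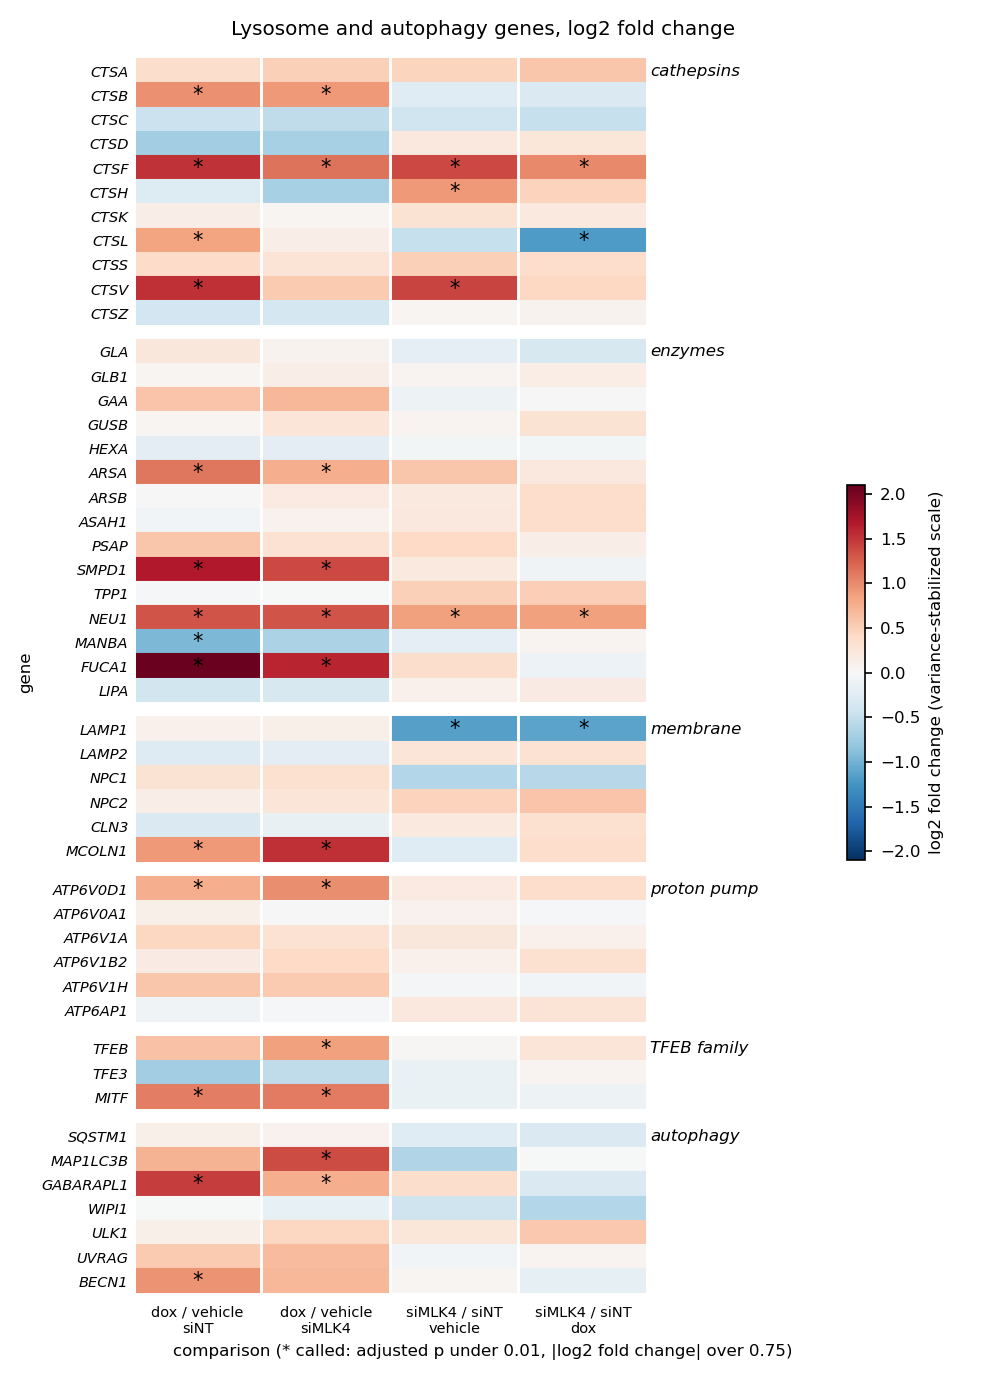
Log2 fold change of each of the 48 genes (rows, grouped by role) in the 4 comparisons (columns), as color from blue (lower) to red (higher), with an asterisk where the gene was called. The 2 doxorubicin columns carry 14 and 12 asterisks, and the 2 siRNA columns carry 5 and 4.

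Among the lysosomal enzymes, 4 of 15 rose with doxorubicin, and they were the same genes, FUCA1, SMPD1, NEU1 and ARSA, in both siRNA groups. FUCA1 (ENSG00000179163, chromosome 1, 23845077 to 23868290, − strand), the lysosomal fucosidase, gave 549.5, 544 and 624 normalized reads in siNT cells on vehicle and 2814, 2778 and 2229.5 on doxorubicin. Its siMLK4 values were 706, 696 and 856 on vehicle and 2507, 2797 and 1939 on doxorubicin. All doxorubicin libraries lay far above all vehicle libraries. The mean rose 4.55-fold in siNT cells, a log2 fold change of 2.08 (SE 0.14, adjusted p = 8.4e-08), and 3.21-fold in siMLK4 cells, a log2 fold change of 1.60 (SE 0.14, adjusted p = 7.4e-07). On the log2 scale of the deposited values these were the highest of the 48 genes in both groups, while as a ratio of means MCOLN1 was higher in siMLK4 cells, at 3.40-fold.

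SMPD1 (ENSG00000166311, chromosome 11, 6390440 to 6394998, + strand), the acid sphingomyelinase that releases ceramide from sphingomyelin, had 359, 289.7 and 277 normalized reads in siNT cells with vehicle and 1250.4, 1159 and 922 with doxorubicin. Its values in siMLK4 cells were 304, 378 and 415 with vehicle and 1020.1, 1141 and 939.9 with doxorubicin. Vehicle and doxorubicin libraries did not overlap, and the siRNA groups overlapped in both conditions. It rose by 1.69 (SE 0.14, adjusted p = 4.7e-07) on the log2 scale in siNT cells and 1.38 (SE 0.14, adjusted p = 2.5e-06) in siMLK4 cells. ARSA, the sulfatase that degrades sulfatide, had 119, 98.6 and 71.8 normalized reads with vehicle and 303, 290.1 and 206 with doxorubicin in siNT cells, and 161, 135 and 209 with vehicle and 317, 285 and 344 with doxorubicin in siMLK4 cells. Within each siRNA group the treatments did not overlap. It rose by 1.13 (SE 0.16, adjusted p = 5.4e-05) and 0.76 (SE 0.16, adjusted p = 0.0013) on the log2 scale. In siMLK4 cells the ARSA call was lost without siMLK4 vehicle replicate 1, siMLK4 vehicle replicate 2 or siMLK4 doxorubicin replicate 3, where the log2 fold change was 0.64 to 0.74.

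NEU1 (ENSG00000204386, chromosome 6, 31857659 to 31862905, − strand), the lysosomal sialidase, moved with both factors. Without drug, siNT cells gave 1488, 1203 and 1097 and siMLK4 cells 1981, 2410.3 and 2596 normalized reads. With drug, siNT cells gave 3620.3, 3191 and 2839.9 and siMLK4 cells 5996, 5866 and 5652. The siNT vehicle libraries were lowest, the siMLK4 doxorubicin libraries were highest, and each step between groups that differ in 1 factor separated the libraries completely. Doxorubicin raised it 2.55-fold in siNT cells and 2.51-fold in siMLK4 cells, with log2 fold changes of 1.32 (SE 0.13, adjusted p = 2.3e-06) and 1.31 (SE 0.13, adjusted p = 2.4e-06).

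MANBA, a mannosidase of the lysosome, was the 1 member called lower. On the log2(normalized reads + 1) scale and with limma-voom on the recovered reads, TFE3 was called lower in siNT cells as well. TFE3 was also called lower there without siNT vehicle replicate 2, and CTSD without siNT vehicle replicate 3. In siMLK4 cells CTSD was called lower without siMLK4 vehicle replicate 1. CTSH was called lower there without siMLK4 vehicle replicate 1, siMLK4 vehicle replicate 2 or siMLK4 doxorubicin replicate 3. The MANBA mean was 423 ± 17.6 normalized reads with vehicle and 199 ± 40.0 with doxorubicin in siNT cells (SD, n = 3), a log2 fold change of −0.94 (SE 0.13, adjusted p = 2.7e-05). In siMLK4 cells the means were 359.5 ± 25.0 and 208 ± 26.0, with a log2 fold change of −0.67 (SE 0.13, adjusted p = 4.4e-04) that missed the fold threshold, and with library totals the siNT value was −0.73 and missed it too. The other 10 enzymes passed in neither group, with log2 fold changes between −0.41 for LIPA, the acid lipase, and 0.59 for GAA, the acid glucosidase, in siNT cells. GLB1, whose product is the lysosomal β-galactosidase, was at 1274 ± 77.8 and 1308 ± 62.1 normalized reads in siNT cells and at 1323 ± 31.1 and 1459 ± 109 in siMLK4 cells, with vehicle and doxorubicin respectively (SD, n = 3 each). PSAP, at 13268 ± 1891 and 19865 ± 812 in siNT cells, had a log2 fold change of 0.59 (SE 0.12, adjusted p = 0.0011), below the fold threshold. When libraries were scaled to their totals, GAA and PSAP were called higher in siNT cells, and GAA in siMLK4 cells too.

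Of the 11 cathepsins, CTSB and CTSF rose with doxorubicin in both siRNA groups, and CTSL and CTSV passed in siNT cells. CTSF (ENSG00000174080, chromosome 11, 66563464 to 66568879, − strand), a cysteine cathepsin, had 76.3, 59.2 and 52.8 normalized reads in siNT cells with vehicle and 298, 252 and 235 with doxorubicin. In siMLK4 cells it had 191, 197 and 344 with vehicle and 588, 568 and 582 with doxorubicin. The lowest 3 libraries were those of siNT cells with vehicle and the highest 3 those of siMLK4 cells with doxorubicin, while the groups in between overlapped. Its log2 fold change with doxorubicin was 1.51 (SE 0.17, adjusted p = 4.9e-06) in siNT cells and 1.13 (SE 0.17, adjusted p = 5.7e-05) in siMLK4 cells. CTSB, the most abundant cathepsin by reads, had means of 7447 ± 512 and 14485 ± 565 normalized reads in siNT cells, on vehicle and on doxorubicin, and of 6227 ± 762 and 11738 ± 261 in siMLK4 cells (SD, n = 3 each). It rose with log2 fold changes of 0.96 (SE 0.11, adjusted p = 6.0e-06) and 0.92 (SE 0.11, adjusted p = 8.8e-06).

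CTSL (ENSG00000135047, chromosome 9, 87724051 to 87731469, + strand), a cysteine protease of broad specificity that the study itself had picked from these libraries, so that its call is no independent support, had 2960.3, 2363 and 2114 normalized reads in siNT cells with vehicle and 4661, 4514 and 4198 with doxorubicin. The corresponding values in siMLK4 cells were 1469.8, 1897 and 1898 with vehicle and 1960.5, 1848 and 1942 with doxorubicin. The siNT doxorubicin libraries stood above all others, and in siMLK4 cells the vehicle and doxorubicin libraries overlapped. The log2 fold change with doxorubicin was 0.85 (SE 0.13, adjusted p = 8.8e-05) in siNT cells, which fell to 0.74 without siNT vehicle replicate 3 and was then not called, and 0.13 (SE 0.13, adjusted p = 0.4) in siMLK4 cells. CTSV (ENSG00000136943, chromosome 9, 97029677 to 97156556, − strand), a close relative of CTSL known from thymus and epidermis, had 875, 744 and 759 normalized reads with vehicle and 2518, 2509 and 2166 with doxorubicin in siNT cells. Its siMLK4 libraries had 2102, 2082 and 2470.3 with vehicle and 3433, 3401 and 2972 with doxorubicin. The siNT vehicle libraries were well below the other 9, and within each siRNA group the treatments did not overlap. CTSV rose by 1.53 (SE 0.11, adjusted p = 1.4e-07) in siNT cells, while its log2 fold change of 0.55 (SE 0.11, adjusted p = 8.0e-04) in siMLK4 cells missed the fold threshold.

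The remaining cathepsins did not pass with doxorubicin. CTSC, which activates granule proteases, and CTSZ, a carboxypeptidase, had log2 fold changes of −0.46 and −0.39 in siNT cells and −0.53 and −0.37 in siMLK4 cells, with adjusted p-values between 6.5e-04 and 0.009. CTSD, an aspartic protease, stood at −0.73 (SE 0.23, adjusted p = 0.013) and −0.69 (SE 0.23, adjusted p = 0.018), and since it shares 23% of its 50-base stretches with other genes its values are uncertain. CTSA, a protective partner of NEU1 in the lysosome, had log2 fold changes of 0.38 and 0.50. CTSS had 0.40 and 0.29, CTSK 0.15 and 0.04, and CTSH −0.28 and −0.70.

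Of the 6 genes of the lysosomal membrane and cholesterol export, MCOLN1 rose with doxorubicin. MCOLN1 (ENSG00000090674, chromosome 19, 7522624 to 7534009, + strand), the calcium channel TRPML1, had 214, 249 and 223 normalized reads in siNT cells with vehicle and 478, 478 and 457 with doxorubicin. In siMLK4 cells it had 196, 216 and 147 with vehicle and 646, 738 and 517 with doxorubicin. Vehicle and doxorubicin libraries were apart in both groups, and the siMLK4 doxorubicin libraries were highest. The rise was 2.06-fold in siNT cells and 3.40-fold in siMLK4 cells, with log2 fold changes of 0.90 (SE 0.14, adjusted p = 7.7e-05) and 1.53 (SE 0.14, adjusted p = 8.8e-07). LAMP1, LAMP2, NPC1, NPC2 and CLN3 passed in neither group, the log2 fold changes of LAMP1 being 0.10 and 0.13. NPC1 and NPC2, which act in turn to export cholesterol, had 0.30 and 0.15 in siNT cells and 0.34 and 0.27 in siMLK4 cells.

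Of the 6 proton pump genes, ATP6V0D1 (ENSG00000159720, chromosome 16, 67438014 to 67481181, − strand), which joins the membrane part of the pump to its stalk, rose in both groups. It had 1129.6, 1025 and 793 normalized reads with vehicle and 1979, 1642 and 1499 with doxorubicin in siNT cells, and 947, 1182 and 1232 with vehicle and 2359.9, 2296 and 2083 with doxorubicin in siMLK4 cells. The treatments did not overlap in either group. It rose by 0.77 (SE 0.14, adjusted p = 4.3e-04) on the log2 scale in siNT cells and 0.98 (SE 0.14, adjusted p = 5.8e-05) in siMLK4 cells. In siNT cells it was 0.63 without siNT vehicle replicate 3 and 0.66 without siNT doxorubicin replicate 1, and the call was then lost. Of the other pump genes, ATP6V1H had log2 fold changes of 0.59 and 0.55, ATP6V1A, the catalytic subunit, had 0.45 and 0.32, and ATP6V1B2 had 0.18 and 0.41, all below the fold threshold. With library totals ATP6V1H was called higher in siNT cells. ATP6V0A1 and ATP6AP1 lay between −0.09 and 0.12 in the 2 groups.

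The 3 factors of the TFEB family differed from one another. MITF (ENSG00000187098, chromosome 3, 69739456 to 69968336, + strand), best known for its role in melanocytes, had 90.4, 64.4 and 111 normalized reads with vehicle and 222, 229 and 249 with doxorubicin in siNT cells. The siMLK4 cells gave 85.2, 70.7 and 71.4 with vehicle and 208, 191 and 244 with doxorubicin. Doxorubicin libraries were all above vehicle libraries, and the siRNA groups overlapped. MITF rose by 1.07 (SE 0.14, adjusted p = 1.6e-05) and 1.10 (SE 0.14, adjusted p = 1.3e-05) on the log2 scale. TFEB had 112 ± 21.3 normalized reads without and 195 ± 20.0 with drug in siNT cells, and 117 ± 37.9 without and 246 ± 31.7 with drug in siMLK4 cells (SD, n = 3 each). Its log2 fold change passed in siMLK4 cells, at 0.86 (SE 0.16, adjusted p = 4.0e-04), but not without siMLK4 vehicle replicate 2 (0.72), and in siNT cells it was 0.61 (SE 0.16, adjusted p = 0.0048), although TFEB was called higher there too with library totals, log2(normalized reads + 1) or limma-voom. TFE3, the most abundant of the 3 per kb, had 1275, 1173 and 1302 normalized reads with vehicle and 717, 734 and 743 with doxorubicin in siNT cells. The doxorubicin libraries were all lower. The log2 fold change of −0.73 (SE 0.09, adjusted p = 1.3e-05) lay just under the fold threshold, and that of −0.53 (SE 0.09, adjusted p = 2.2e-04) in siMLK4 cells did not reach it either.

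Of the 7 autophagy genes, GABARAPL1 rose in both groups, BECN1 passed in siNT cells and MAP1LC3B in siMLK4 cells. GABARAPL1 (ENSG00000139112, chromosome 12, 10212458 to 10223128, + strand), a protein of autophagosome membranes, had 1092, 779.7 and 1136 normalized reads with vehicle and 2648, 3066 and 2662 with doxorubicin in siNT cells. The siMLK4 libraries had 1399, 1204 and 1268 with vehicle and 2347, 2115 and 2245 with doxorubicin. The treatments were apart in both groups, and with doxorubicin the siMLK4 libraries lay below the siNT libraries. It rose by 1.44 (SE 0.13, adjusted p = 8.9e-07) on the log2 scale in siNT cells and 0.77 (SE 0.13, adjusted p = 2.0e-04) in siMLK4 cells, where the call was lost without siMLK4 vehicle replicate 2 (0.72) or siMLK4 doxorubicin replicate 1 (0.73).

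MAP1LC3B encodes LC3B, the protein most often used to mark autophagosomes. It had 3152, 1533 and 2496 normalized reads with vehicle and 4383, 3843 and 3377 with doxorubicin in siNT cells, and 1245, 1282 and 1931 with vehicle and 3863, 4597 and 3168 with doxorubicin in siMLK4 cells. The siNT vehicle libraries were widely spread, and the treatments did not overlap in either group. Its log2 fold change was 0.73 (SE 0.23, adjusted p = 0.014) in siNT cells and 1.36 (SE 0.23, adjusted p = 1.8e-04) in siMLK4 cells. In siNT cells MAP1LC3B was called higher too with library totals, with the upper quartile or without siNT vehicle replicate 1. BECN1, a subunit of the lipid kinase complex that starts autophagosomes, had 839 ± 89.4 normalized reads without and 1649 ± 51.0 with drug in siNT cells (SD, n = 3). It rose there, with a log2 fold change of 0.94 (SE 0.11, adjusted p = 5.8e-06), and in siMLK4 cells it had 0.70 (SE 0.11, adjusted p = 6.6e-05). In siMLK4 cells BECN1 was called higher too with library totals or without siMLK4 vehicle replicate 3. UVRAG, a partner of BECN1, had 0.54 and 0.67, ULK1, the kinase at the head of the pathway, 0.13 and 0.44, SQSTM1 0.13 and 0.09, and WIPI1 0.00 and −0.17, none of which passed. UVRAG was called higher in both siRNA groups with library totals.

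**Figure D3:**
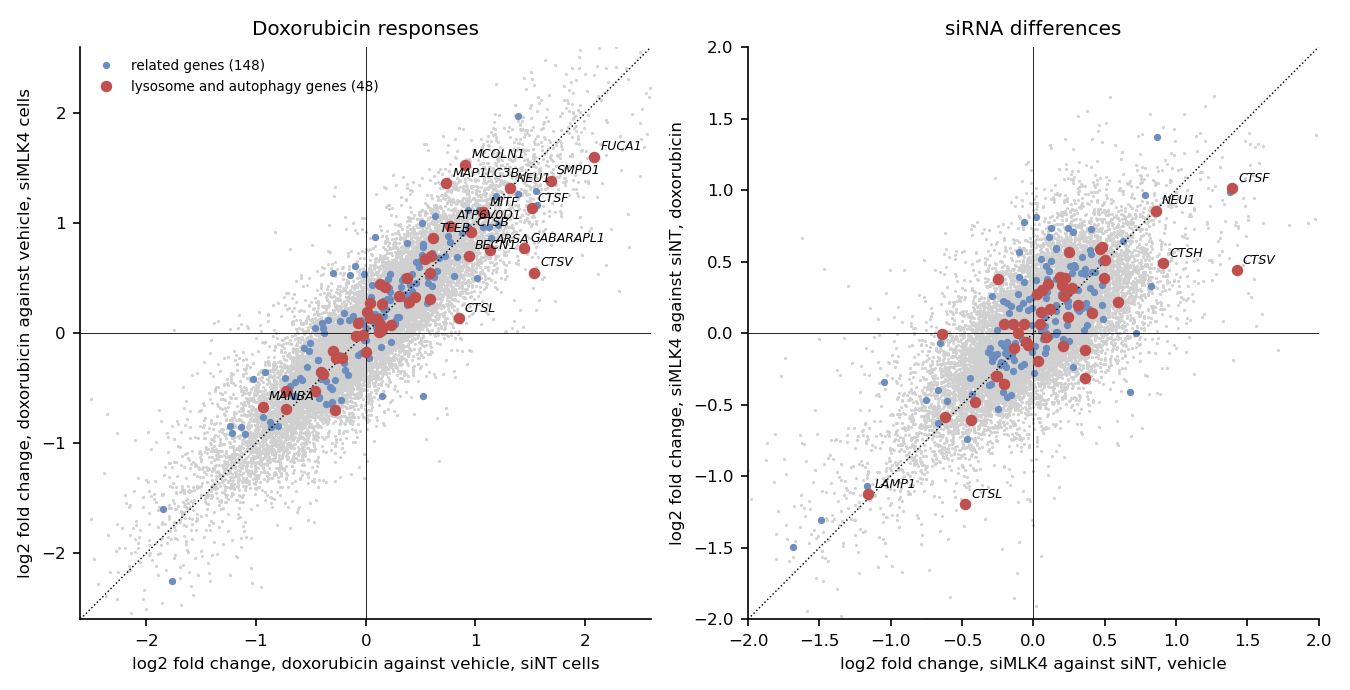
Left, log2 fold change with doxorubicin in siNT cells (x axis) against that in siMLK4 cells (y axis), and right, log2 difference between siMLK4 and siNT cells with vehicle (x axis) against that with doxorubicin (y axis), for the 48 genes (red), 148 related genes (blue) and all other genes within the axes (gray), with a dotted line of equality. Called members are named: most lie near the line on the left, with CTSL, CTSV, GABARAPL1 and FUCA1 below it and MCOLN1 and MAP1LC3B above it, and LAMP1, CTSF and NEU1 lie away from 0 on both axes on the right.

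Fewer of the 48 genes differed between siMLK4 and siNT cells. With vehicle, 4 were higher in siMLK4 than in siNT cells (8.33%, against 2.51% of all genes) and 1 was lower (2.08%, against 3.14%). With doxorubicin, 2 were higher and 2 were lower (4.17% each, against 2.66% and 2.93% of all genes). The median log2 difference of the 48 genes was 0.11 with vehicle and 0.14 with doxorubicin, beside 0.01 and 0.02 over all genes. The libraries did not overlap for 16 members that were higher and 8 that were lower with vehicle (19.7% and 18% of all genes), and for 19 and 10 with doxorubicin (22.8% and 21.1%). At an adjusted p under 0.05 with no fold threshold, 10 were higher and 5 lower with vehicle (12.7% and 13% of all genes), and 10 and 6 with doxorubicin (12.7% and 12.1%). CTSF and NEU1 were called higher in both conditions (0.811% of all genes were), and LAMP1 was called lower in both (1.69% of all genes were).

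LAMP1 (ENSG00000185896, chromosome 13, 113297239 to 113323672, + strand) gave 7873, 7924 and 8138 normalized reads in siNT cells on vehicle, against 3667, 3526 and 3456 in siMLK4 cells. With doxorubicin it had 8905, 8226 and 8544 in siNT cells and 3862, 4160.1 and 3663 in siMLK4 cells. The 6 siMLK4 libraries lay far below the 6 siNT libraries, whatever the treatment. MLK4-depleted cells had 44.5% of the siNT mean with vehicle and 45.5% with doxorubicin, with log2 differences of −1.16 (SE 0.09, adjusted p = 1.6e-06) and −1.13 (SE 0.09, adjusted p = 3.0e-06). LAMP2, the second major protein of the lysosomal membrane, had 2375 ± 401 and 2872 ± 371 normalized reads in siNT and siMLK4 cells with vehicle (SD, n = 3 each), a log2 difference of 0.27 (SE 0.13, adjusted p = 0.13) that did not pass. NPC1 stood at −0.62 with vehicle and −0.58 with doxorubicin, with adjusted p-values of 0.0036 and 0.0054, below the fold threshold.

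The values of CTSF given above correspond to a 3.89-fold higher mean in siMLK4 than in siNT cells with vehicle and a 2.21-fold higher mean with doxorubicin, with log2 differences of 1.39 (SE 0.17, adjusted p = 4.7e-05) and 1.02 (SE 0.17, adjusted p = 6.2e-04). For NEU1 the means were 1.84 and 1.81 times those of siNT cells, with log2 differences of 0.86 (SE 0.13, adjusted p = 4.1e-04) and 0.86 (SE 0.13, adjusted p = 4.4e-04). CTSV was 2.80 times as high in siMLK4 cells with vehicle, a log2 difference of 1.42 (SE 0.11, adjusted p = 1.4e-06), and with doxorubicin the difference of 0.44 (SE 0.11, adjusted p = 0.011) did not pass. CTSH, an aminopeptidase among the cathepsins, had 481, 361 and 416 normalized reads in siNT and 729, 669.6 and 1167 in siMLK4 cells with vehicle. It had 369, 279.9 and 359.9 in siNT and 493, 414 and 575 in siMLK4 cells with doxorubicin. Within a treatment the siRNA groups did not overlap, and siMLK4 vehicle replicate 3 stood above the others. CTSH passed with vehicle, at 0.91 (SE 0.18, adjusted p = 0.0026), and was lost without siMLK4 vehicle replicate 3 (0.68), without siNT vehicle replicate 2 (0.82, adjusted p = 0.015) or when only the vehicle libraries were fitted (adjusted p = 0.028). In that fit NEU1 with vehicle was lost too, at an adjusted p = 0.012.

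CTSL was the cathepsin called lower in this comparison. In MLK4-depleted cells its mean was 70.8% of that in siNT cells with vehicle, a log2 difference of −0.48 (SE 0.13, adjusted p = 0.015), and 43.0% with doxorubicin, a log2 difference of −1.19 (SE 0.13, adjusted p = 2.8e-05). The vehicle difference did not pass and the doxorubicin difference did. CTSB, also a cysteine cathepsin, had log2 differences of −0.26 (SE 0.11, adjusted p = 0.093) and −0.30 (SE 0.11, adjusted p = 0.056), and CTSC had −0.41 and −0.48, none of which passed.

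**Figure D4:**
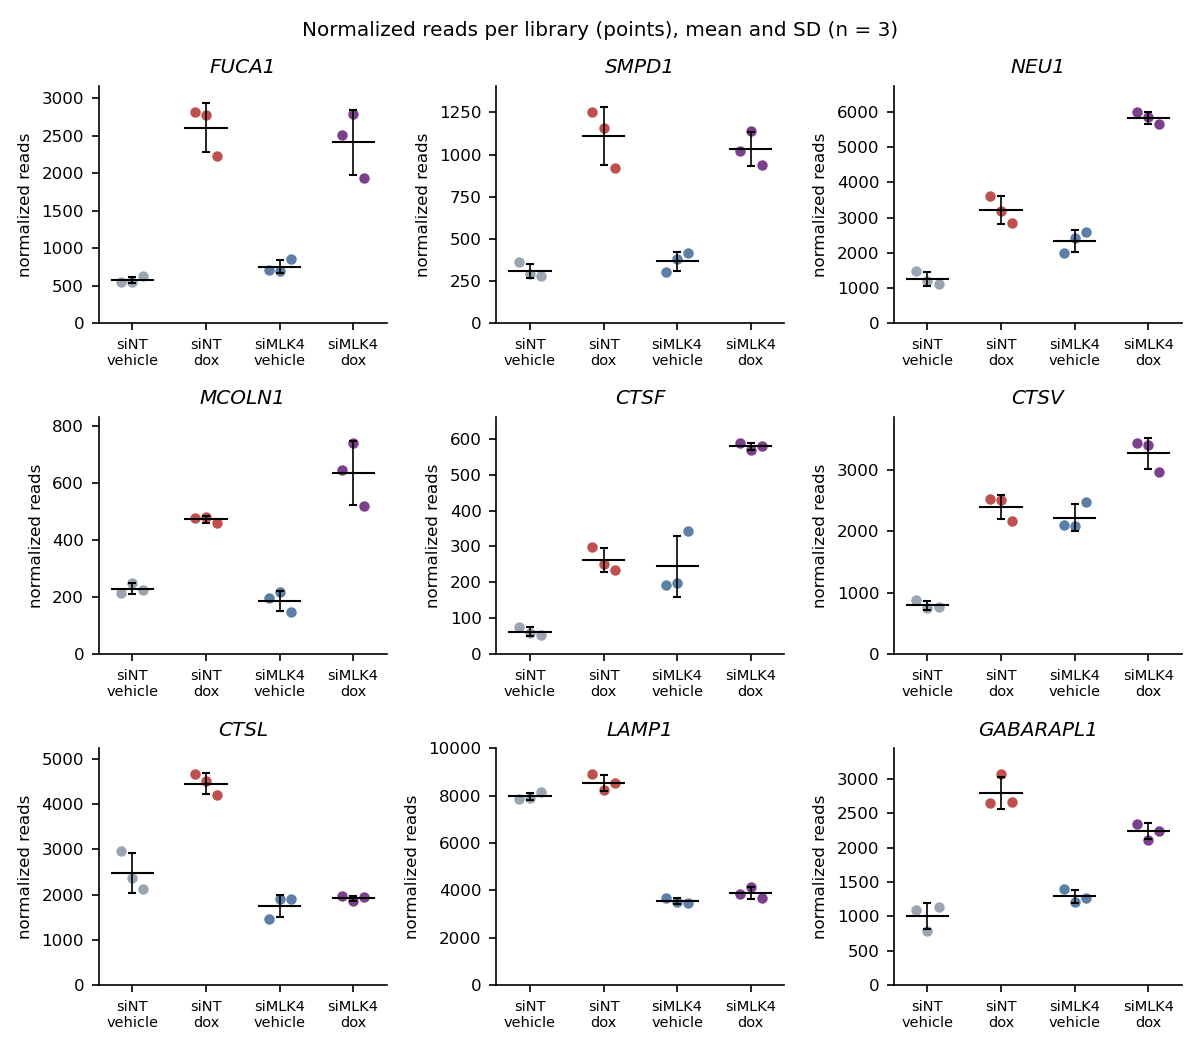
Normalized reads of 9 genes in each library (points), by siRNA and treatment, with mean and SD (n = 3) in black and each y axis starting at 0. FUCA1, SMPD1, MCOLN1 and GABARAPL1 separate by treatment, LAMP1 separates by siRNA, NEU1, CTSF and CTSV move with both, and for CTSL the siNT doxorubicin libraries stand alone.

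Whether the response to doxorubicin differed between siNT and siMLK4 cells was tested as an interaction in the same limma fit. It was called for 1 of the 48 genes, with a lower response in siMLK4 cells (2.08%, against 0.176% of all genes). The gene was CTSV, whose response was smaller in siMLK4 cells by a log2 difference of −0.99 (SE 0.16, adjusted p = 0.0081). That call is not firm, since the adjusted p was 0.015 with the replicate number as a block, 0.0103 without the variance trend and 0.012 to 0.035 when any 1 library was left out, although the log2 difference stayed between −0.91 and −1.06. A higher response in siMLK4 cells was called for none, against 0.0999% of all genes, and limma-voom on the recovered reads called none either (0.0705% of all genes). In all, 5 of the 48 genes had an unadjusted p under 0.05 in either direction, against 14.5% of all genes. CTSL, with an interaction of −0.71 (SE 0.18, adjusted p = 0.077), GABARAPL1, with −0.67 (SE 0.19, adjusted p = 0.092), and MCOLN1, with 0.63 (SE 0.19, adjusted p = 0.14), did not pass. The interaction for NEU1 was 0.00 (SE 0.19) and that for LAMP1 0.03 (SE 0.13). Under the settings used for calls, CTSL, CTSV, BECN1 and MANBA passed in siNT cells alone, and MAP1LC3B and TFEB in siMLK4 cells alone. Of these, CTSV alone had a called interaction. A call in 1 siRNA group alone does not show that the responses of a gene differed.

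The promoter element described above was set beside these calls. Of the 6 genes with TCACGTGA in the window, 2 rose with doxorubicin in siNT cells, MCOLN1 and ATP6V0D1, and of the 29 genes whose window lacks it 9 did. The median log2 fold changes were 0.48 and 0.13 in siNT cells and 0.60 and 0.19 in siMLK4 cells. With CACGTG, 4 of 10 genes rose in siNT cells, against 7 of 25 without it. FUCA1 and SMPD1, with log2 fold changes of 2.08 and 1.69 in siNT cells, have no CACGTG in their windows, CTSF, with 1.51, has it, and LAMP1, with 6 copies, was not called with doxorubicin. These values describe so few genes that nothing is read from them.

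An siRNA can also lower transcripts whose 3′UTR matches its seed, and the pool was therefore searched. The sense strands of the 4 siRNAs are shown with the 7 letters of the seed match in capitals.
siMLK4_1: ggaaagaugcuCAGAGAGauu
siMLK4_2: aggagaagcccAAGGUAAauu
siMLK4_3: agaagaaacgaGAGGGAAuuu
siMLK4_4: agaacagauugCAAAGAAauu
At least 1 of the 4 words occurs in an annotated 3′UTR of 22 of the 48 genes (45.8%), against 6813 of 13570 genes with a 3′UTR (50.2%). The LAMP1 3′UTR, of at most 1251 bases, holds the words of siMLK4_1 and siMLK4_3 once each, and that of CTSL, of at most 726 bases, holds none. CTSF and CTSH, which were higher in siMLK4 cells, hold the word of siMLK4_3, CTSV holds those of siMLK4_3 and siMLK4_4, and NEU1 holds none. Over the 48 genes, the median log2 difference between siMLK4 and siNT cells with vehicle was 0.10 for genes with a match and 0.19 for those without, and 0.06 and 0.20 with doxorubicin. Whether seed matches lowered any of these transcripts was not tested.

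A further 148 genes of the same processes gave the wider setting. Doxorubicin raised 18 of them in siNT cells and 22 in siMLK4 cells (12.2% and 14.9%, against 12.1% and 12.6% of all genes) and lowered 11 and 9 (7.43% and 6.08%, against 10.6% in each), with medians of 0.11 and 0.15. The largest rises in siNT cells were those of TP53INP1, a stress-induced autophagy protein, from 65.1 ± 13.0 to 278 ± 14.4 normalized reads (log2 fold change 1.56, SE 0.13, adjusted p = 5.8e-07), LAMP3, a LAMP1 relative, from 143 ± 71.1 to 488 ± 65.7 (1.55, SE 0.22, adjusted p = 4.2e-05), and TPCN1, a two-pore channel of endosomes and lysosomes, from 616 ± 109.9 to 1689 ± 205 (1.39, SE 0.18, adjusted p = 1.8e-05). In siMLK4 cells TPCN1 (1.98), LAMP3 (1.29) and TP53INP2 (1.26), an activator of autophagy, led on the log2 scale. MLST8, a subunit of the mTOR complexes, which restrain autophagy, fell in siNT cells, from 561 ± 62.1 to 121 ± 14.8 normalized reads (−1.85, SE 0.14, adjusted p = 2.1e-07), and ACP5 fell from 130.3, 120.4 and 126 in the 3 vehicle libraries to 16.6, 8.14 and 11.2 in the 3 doxorubicin libraries (−1.76, SE 0.12, adjusted p = 9.6e-08). GALNS, a sulfatase, had a log2 fold change of −1.24 (SE 0.11, adjusted p = 7.8e-07) in siNT cells. ACP5 (−2.26), MLST8 (−1.60) and GM2A (−0.92), a cofactor of ganglioside breakdown, fell most on the log2 scale in siMLK4 cells. As a ratio of means GALNS fell further there than GM2A, to 47.0% against 51.8% of the vehicle mean.

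Between siRNA groups, 4 of the 148 related genes were higher and 4 lower in siMLK4 cells with vehicle (2.7% each, against 2.51% and 3.14% of all genes), and 5 and 3 with doxorubicin (3.38% and 2.03%, against 2.66% and 2.93%). The serpins SERPINB3 and SERPINB4, inhibitors of cysteine and serine proteases that include cathepsins, stood lowest. SERPINB4 had 147, 179 and 219 normalized reads in siNT and 28.1, 28.9 and 25.9 in siMLK4 cells with vehicle, a log2 difference of −1.69 (SE 0.16, adjusted p = 5.4e-06), and −1.50 (SE 0.16, adjusted p = 1.9e-05) with doxorubicin. SERPINB3 had 154, 225 and 225 in siNT and 46.1, 51.8 and 32.4 in siMLK4 cells with vehicle, with log2 differences of −1.49 (SE 0.14, adjusted p = 5.2e-06) and, with doxorubicin, −1.31 (SE 0.14, adjusted p = 2.0e-05). The libraries of these genes did not overlap between the siRNA groups, but SERPINB3 and SERPINB4 share 24.2% and 20.5% of their 50-base stretches with other genes, mainly with each other, so reads of one cannot be fully told from the other. M6PR, the receptor that carries new enzymes to lysosomes, went from 4269 ± 509 normalized reads in siNT to 1871 ± 239 in siMLK4 cells with vehicle (−1.17, SE 0.13, adjusted p = 2.9e-05) and had a log2 difference of −1.07 (SE 0.13, adjusted p = 7.8e-05) with doxorubicin. TP53INP1 (1.38 with vehicle and 0.98 with doxorubicin), GM2A (0.78 and 0.96) and RRAGD (0.87 and 1.37), a Rag GTPase that recruits mTORC1 to the lysosome, were called higher in both conditions, and ACP5 (0.82) with vehicle.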

How the data were processed

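mRNA was sequenced in 12 HCC1806 libraries, and samples were grouped by siRNA and treatment as given in the labels. The authors trimmed reads with Trimmomatic 0.39, used HISAT2 for alignment and HTSeq 0.6.0, set to the reverse strand, for counting once optical duplicates were out, and normalized with DESeq2 1.26.0. The methods name GRCh38 and the submitters' processing notes name hg19, a conflict that was not resolved. Coordinates are from GENCODE 44 (GRCh38). The values deposited by the authors are variance-stabilized log2 values. Inverting the transformation gave whole reads within 0.05 for 100% of values, with size factors of 0.852 to 1.199. Depth was 16759025 to 19302248 reads per library, and replicate libraries differed by more than sampling noise (chi-square per degree of freedom 7.01 to 63.7).

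Limma 3.58.1 (R 4.3.3, eBayes with a variance trend) was fitted to the log2 values of all 17013 genes in 12 libraries with 4 group means, with Benjamini-Hochberg adjustment over all genes. On simulated data for doxorubicin in siNT cells (17013 genes), 198 of 200 changed genes (99%, log2 fold change 1.5) and 0 of 16813 unchanged genes were called. The changed genes were drawn above a minimum mean level and split evenly between higher and lower. Every gene had the same dispersion, and libraries differed only by size factor and random spread. These shares therefore do not give the error rates of the measured comparisons, where replicates varied more unevenly and many more genes changed. Values of every library are given for called members, up to 8 per comparison by fold change, and the 3 called related genes of largest fold change per comparison and direction are named. No column of another sample was in the table. TFE3, whose values are also given by library, was chosen after they were seen. The members, lists and rules were chosen with earlier results of these data known. Alternatives were scaling, log2(normalized reads + 1), limma-voom on recovered reads, at least 10 reads in every library, fewer groups, no variance trend, a replicate block, an adjusted p under 0.05 alone and leaving out each library. Deviations from group means correlated positively between equally numbered libraries of the 2 treatments in siNT cells (0.46, 0.105 and 0.205). They did so too between siRNA groups with doxorubicin (0.19, 0.52 and 0.56), which is read from the values alone. Every equally numbered pair had to be over 0.1, which failed for doxorubicin in siMLK4 cells (−0.0774, 0.176 and 0.337) and for the siRNA groups with vehicle (−0.723, 0.325 and −0.523). In siNT cells, vehicle replicate 3 and doxorubicin replicate 2 had 0.308, and the other unequally numbered pairs were negative. Unequally numbered pairs of the siRNA groups reached 0.0458 with doxorubicin and 0.688 with vehicle. The values therefore do not settle whether equal numbers mark libraries made together.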

Additional observations from a re-analysis of the deposited data

Results flagged for a closer look

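The response of CTSV, a cysteine cathepsin, to doxorubicin differed between siNT and siMLK4 cells by −0.99 on the log2 scale in the interaction test (limma, adjusted p = 0.0081). The call was lost in 12 of 12 fits that left out 1 library (adjusted p = 0.012 to 0.035), with the replicate block (0.015) and without the variance trend (0.0103). The treatments were apart in both siRNA groups, with log2 fold changes of 1.53 in siNT and 0.55 in siMLK4 cells.

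CLCN7, the chloride-proton exchanger of the lysosome and 1 of the 148 related genes, had a difference in response of 0.79 on the log2 scale (SE 0.16, limma interaction, adjusted p = 0.026), which passes 0.05 and not the 0.01 used for calls. It no longer passed 0.05 in 7 of the 12 fits that left out 1 library, namely without siNT vehicle replicate 1 (0.055), siNT doxorubicin replicate 2 (0.058) or 3 (0.062), siMLK4 vehicle replicate 1 (0.059) or 2 (0.059), or siMLK4 doxorubicin replicate 1 (0.098) or 2 (0.080), while the log2 difference lay between 0.68 and 0.86 in all 12. It had 813, 714 and 747 normalized reads with vehicle and 889.6, 858 and 688 with doxorubicin in siNT cells, and 768, 790.1 and 747 with vehicle and 1503, 1549 and 1321 with doxorubicin in siMLK4 cells. Only the siMLK4 doxorubicin libraries stood apart from the others.

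TMEM175, a potassium and proton channel of the lysosome, had log2 fold changes of opposite sign with doxorubicin, −0.14 in siNT and 0.53 in siMLK4 cells, and the difference of 0.67 on the log2 scale did not pass (SE 0.16, limma interaction, adjusted p = 0.057). Its size and call depended on the setting. It was 1.38 with log2(normalized reads + 1) and 1.41 with limma-voom, and the adjusted p was 0.0447 with at least 10 reads in every library, 0.049 without siMLK4 vehicle replicate 3, and 0.0509 to 0.131 under the other settings. Its normalized reads were 28.2, 23.9 and 28.1 with vehicle and 22.1, 22.4 and 19.3 with doxorubicin in siNT cells, where every doxorubicin library was lower, and 25.0, 15.9 and 28.1 with vehicle and 42.4, 49.2 and 53.5 with doxorubicin in siMLK4 cells, where every doxorubicin library was higher.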

How the results depend on the processing

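Of the 36 pairs of member and comparison called, none reversed over the 509 alternative values that were free to differ, 481 kept the call and 28 did not. Left out of these are the looser threshold, which keeps every call, and fits without a library from outside the comparison. With an adjusted p under 0.05 alone, 28, 31, 15 and 16 members passed (the drug in siNT and in siMLK4 cells, then siMLK4 against siNT on vehicle and on drug), in place of 14, 12, 5 and 4. Fitting only the vehicle libraries left 3 members between siRNA groups. The interaction count of 1, CTSV, became 0 without the variance trend and with the replicate block, which changed no other member's call. Leaving out 1 library gave 13 to 15, 10 to 14, 4 to 5 and 4 to 4 members in the same order, and 0 to 0 for the interaction. Scaling shifted the balance of calls over all genes. The share called higher was 53.4, 54.4, 44.4 and 47.6% with the authors' size factors and 72.2, 69.4, 64.6 and 61.1% with library totals, and with the upper quartile it was 63.6% for doxorubicin in siNT cells and 57.4% for siMLK4 against siNT with vehicle. Under a minimum of 10 reads per library it was 42.7% for doxorubicin in siNT cells and 44.3% in siMLK4 cells. Counts over all genes also depended on the scale: with log2(normalized reads + 1), 5591 and 5534 genes passed with doxorubicin and 1613 between siRNA groups with vehicle, and with the vehicle libraries alone 611, in place of 3859, 3949 and 961. The cause of these shifts was not tested. Depth limits what can be said of CLN3.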
